A study of Mus musculus and Rattus norvegicus with 2 samples.

Results

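The reads described here are those that the deposited tables match to a GenBank record of the type rRNA, which covers the large 28S ribosomal RNA and its precursor. The members were the 233 such records of the rat library, out of 54707 entries listed there, and the 593 such records of the mouse library, out of 73768 entries. Both libraries hold small RNAs of purified sperm from the caput, the head of the epididymis. The rat library came from young adult Sprague Dawley rats of 450 g, and the mouse library from C57BL/6 mice aged 2 months, with no treatment named in the labels. The labels give 1 library per species, selected for RNA of 18 to 45 nt, and do not say how many animals were pooled. There is therefore no replicate check of any difference between rat and mouse, no test was made, and the intervals given are exact 95% intervals that cover counting error only.

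Ribosomal RNA is transcribed in the nucleolus as a long precursor that holds the 18S, 5.8S and 28S RNAs in that order, separated by spacers that are cut away and degraded. The leader ahead of 18S is called the 5′ external transcribed spacer. The 28S RNA is the large RNA of the large ribosomal subunit and carries the peptide-bond-forming centre. Sperm are nearly silent in translation and lose most of their ribosomes as they form, and fragments of rRNA, often called rsRNAs, are a known component of sperm small RNA.

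The sequences that carried most of the signal fell at a few places, and the leading forms are shown first. Among these places, reads at the start of mature 28S were the most numerous in rat under any entry. The 5 most abundant forms that begin at this start, and the 19-nt form, are shown with the first 16 bases, which define the group, in capitals.
rat 41 nt: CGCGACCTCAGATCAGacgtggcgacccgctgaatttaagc
rat 36 nt: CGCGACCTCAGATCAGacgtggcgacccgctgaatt
rat 35 nt: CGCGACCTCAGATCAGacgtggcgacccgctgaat
rat 40 nt: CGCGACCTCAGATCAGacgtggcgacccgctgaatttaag
rat 37 nt: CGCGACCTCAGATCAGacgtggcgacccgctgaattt
rat 19 nt: CGCGACCTCAGATCAGacg
The 40-nt and 19-nt forms stood under GenBank rRNA records, and the other 4 under records of the type mRNA.

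A second set of forms (site 2) was abundant in rat and present in mouse with the same letters. Capitals mark the stretch that all forms shown share.
32 nt: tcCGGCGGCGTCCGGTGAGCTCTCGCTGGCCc
30 nt: cCGGCGGCGTCCGGTGAGCTCTCGCTGGCC
29 nt: CGGCGGCGTCCGGTGAGCTCTCGCTGGCC

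At a further place (site 3) rat and mouse had different leading forms, and the stretch they share is in capitals.
leading in rat, 20 nt: GCCGATCGAAAGGGAGTCGG
leading in mouse, 29 nt: tgccctcgGCCGATCGAAAGGGAGTCGGg

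The place with the most mouse reads among those shown (site 4) gave a family of short reads with 1 common 3′ end, together with longer reads in rat. Capitals mark the stretch common to all.
22 nt: ACGAGAACTTTGAAGGCCGAAG
23 nt: aACGAGAACTTTGAAGGCCGAAG
24 nt: aaACGAGAACTTTGAAGGCCGAAG
32 nt: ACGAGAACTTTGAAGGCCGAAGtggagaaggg
Another mouse place (site 6) gave longer reads, again with the common stretch in capitals.
37 nt: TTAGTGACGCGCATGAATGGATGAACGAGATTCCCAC
38 nt: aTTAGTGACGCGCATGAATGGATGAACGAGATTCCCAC
39 nt: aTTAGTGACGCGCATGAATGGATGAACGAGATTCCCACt

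The last set belongs to the leader of the precursor. In the 21-nt form capitals mark the bases that also occur in the hairpin of Mir5099. In the 50-nt form they mark the bases that match the annotated start of the mouse transcript Gm26917, and in the rat form the run of 14 bases shared with the mouse 50-nt form.
mouse 21 nt: tCTTAGATCGATGTGGTGCTC
mouse 50 nt: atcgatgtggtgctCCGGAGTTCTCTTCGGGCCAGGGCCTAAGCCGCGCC
rat 54 nt: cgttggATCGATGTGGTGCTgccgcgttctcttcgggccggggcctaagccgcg

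The class took a larger share of the rat library than of the mouse library. It held 1923777 of 14652889 listed reads in rat, or 13.1% (interval 13.11 to 13.15), and 628730 of 11760708 in mouse, or 5.35% (5.33 to 5.36). The rat share was 2.46-fold the mouse share, a log2 ratio of 1.30 (interval 1.292 to 1.300). This ratio depends on the denominator, because the snoRNA family SNORD58 took 34.2% of listed mouse reads and 0% of listed rat reads. With that family left out of both totals the log2 ratio was 0.69, at 13.1% in rat and 8.12% in mouse. Counted among rRNA reads alone (GenBank plus Rfam entries), the class was 79.3% in rat and 64.3% in mouse. By distinct sequences the class was 15.7% of the rat listing, with 102361 sequences, and 5.31% of the mouse listing, with 48572 sequences.

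The class reads were richer in G and C than the rest of each library. G and C made up 68.0% of their bases in rat, where other listed reads had 53.6%. In mouse the class had 57.4% and other listed reads 47.6%. Reads began with C most often in rat, at 43.1% of class reads, while 62.6% of other rat reads began with G. In mouse the leading first base of the class was A, at 33.9%, while 52.1% of other mouse reads began with T. The other mouse reads include the snoRNA family SNORD58, 34.2% of listed mouse reads, and no value without it is given. Matches without a mismatch made up 95.4% of rat class reads and 98.1% of mouse class reads.

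Few records held nearly all reads in both libraries, and no record was listed in both. In rat, 4 records with at least 1% of the class held 95.3% of it. The record NR_046239.1 had 894548 reads, 46.5% of the rat class (interval 46.4 to 46.6), and NR_046246.1 had 799267 reads, 41.5% (41.5 to 41.6). NM_147136.1 followed with 90594 reads, or 4.71%, and AY739179.1 with 48615, or 2.53%. In mouse, 6 such records held 90.2% of the class. GU372691.1 alone had 505183 reads, 80.3% of the mouse class (80.3 to 80.4). AF441733.2 had 27354 reads, or 4.35%, and J00623.1 had 13554, or 2.16%. BC083148.1, BC065799.1 and NR_002841.1 each had between 7024 and 7151 reads. Just under the 1% limit stood NR_046237.1 in rat, at 0.880%, and NR_046144.1 in mouse, at 0.806%. Fewer than 10 reads stood under 155 of the 233 rat records and 83 of the 593 mouse records, and the median record had 6 reads in rat and 41 in mouse.

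What the reads under each record hold was read from their own letters, since no 28S or rat reference sequence was used here. A read was given the content whose set of 18-nt words held the largest share of its own words, if that share was at least 50%. The 28S set was the 4182 words of unmismatched rat sequences of at least 2 reads under NR_046246.1, whose letters begin at the textbook start of mature 28S. The 18S, 5.8S and 5S sets came from the Rfam entries of both libraries, and the other sets from mouse GENCODE transcripts. The mouse 28S share is a lower bound, because mouse stretches that differ from rat are not recognised. The rat share is a lower bound too, because any 28S stretches listed only under other rat records are not recognised.

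By this measure 28S content was the largest part of the class in both libraries. How mixed the class was cannot be compared between libraries, since the 28S words are from rat and several other sets from mouse only. Reads with 28S content were 1734590, or 90.2% of the class, in rat and 407037, or 64.7%, in mouse. Content of 18S reached 1.70% in rat and 0.0118% in mouse, and 5.8S reached 0.915% in rat and 0.0345% in mouse. Reads of 5S content were 0.0686% in rat and 0.734% in mouse. Unassigned reads were 7.11% in rat and 22.2% in mouse.

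**Figure D1:**
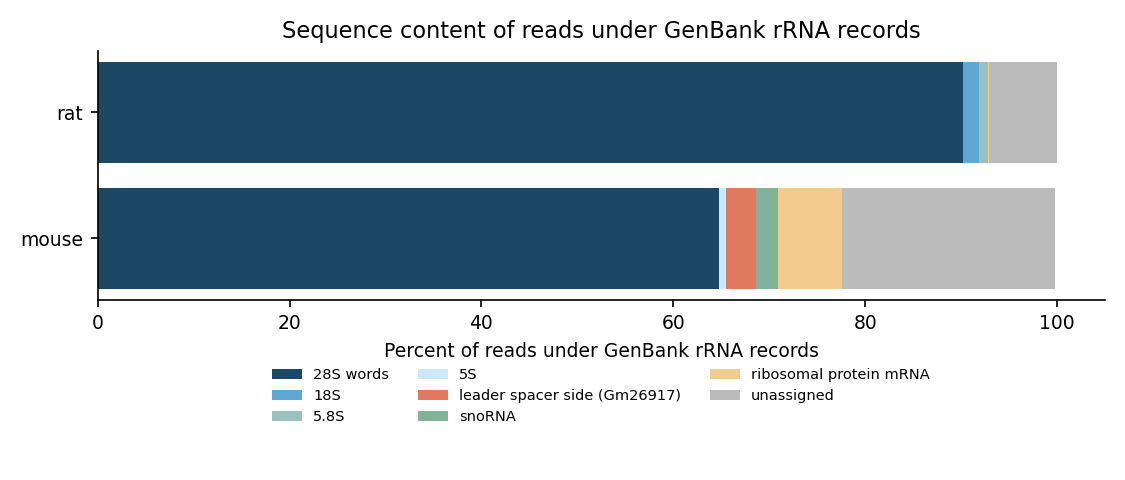
Share of class reads (x axis, percent) by sequence content, rat above mouse, 1 library each. Dark blue, the 28S words, fills 90.2% of the rat bar and 64.7% of the mouse bar, and the mouse bar alone has visible parts for Gm26917, snoRNA and ribosomal protein mRNA. The sets for these parts are from mouse transcripts, so rat reads that differ are not recognised. Mitochondrial rRNA and Gm42418, each under 0.3%, are not drawn.

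Both leading rat records held 28S reads, and they differed in what else they held. Under NR_046246.1, the source of the 28S words, 99.0% of reads had 28S content by construction. Under NR_046239.1, 93.9% of reads had 28S content, 1.60% had 18S content and 1.63% had 5.8S content, so 3 RNAs of 1 precursor stood under it. A further 25972 reads, or 2.90%, carried none of these. The same stretches were split between both records, since 94.6% of reads under NR_046239.1 had at least 50% of their words among all words under NR_046246.1.

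The third rat record was nearly all on the minus strand, with 90592 of its 90594 reads. After they were turned to the reverse complement, 61.6% of its reads had 28S content, and as listed 0% had. Under AY739179.1, 28.1% of reads had 28S content and 71.9% stayed unassigned. In mouse, GU372691.1 had 74.4% of its reads with 28S content, 3.81% with words of Gm26917 and 21.6% unassigned. J00623.1 was 74.2% 28S and 4.53% words from the part of Gm42418 that lies beyond 18S. AF441733.2 was 60.8% 28S.

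Of the 6 leading mouse records, 3 were not large rRNA. BC065799.1 had 98.7% of its reads within Snord34, a box C/D snoRNA that lies in an intron of the ribosomal protein gene Rpl13a and overlaps no exon of its coding transcripts. Its 65-nt read had 5446 copies in mouse, 77.2% of that record. It was not listed in rat, where only 51.3% of sequence numbers are listed. This read is shown because it is a snoRNA listed under an rRNA record. All its 65 bases, in capitals, match GENCODE Snord34 (chr7:45126601-45126670, minus strand, GRCm38), which is 70 bases long, from its base 3 on.
Snord34 read: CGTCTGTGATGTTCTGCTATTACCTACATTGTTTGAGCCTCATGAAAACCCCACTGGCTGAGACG
BC083148.1 had 87.1% of its reads within Snord68, another box C/D snoRNA, which lies in an intron of Rpl13 (chr8:123103038-123103123, plus strand). Its leading read was 73 nt long with 2135 copies. NR_002841.1 is Rn4.5s in RefSeq (chr6:47654921-47655094), a small rodent RNA typed as rRNA there, with 7024 reads and a leading 23-nt read of 534 copies.

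The mouse class also held messenger RNA of ribosomal proteins, the proteins that coat rRNA. Their words made up 406 reads, or 0.0211%, in rat and 42203 reads, or 6.71%, in mouse. The word set is from mouse, so rat messages that differ in sequence are not counted. In mouse, 469 of 593 records held mainly such reads, and 102 of the 593 matched a ribosomal protein gene in RefSeq by accession. The 3 largest of those 102 were Rpl41 with 1615 reads, Rpl11 with 622 and Rpl22 with 603, chosen after their values were seen. These reads were spread thin, at 2.93 reads per distinct sequence against 22.7 for mouse 28S sequences.

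Read lengths differed between the libraries, and in both they ran over the whole selected range. The most common length was 19 nt in rat, with 5.95% of class reads, and 22 nt in mouse, with 10.6%. Reads of 18 to 24 nt were 30.3% in rat and 33.8% in mouse. That order turned round when the most abundant class sequence of each library was left out, at 31.1% in rat and 27.6% in mouse. Reads of 25 to 31 nt were 32.2% in rat and 22.4% in mouse, and reads of 32 to 38 nt were 22.7% in rat and 19.4% in mouse. Reads of 39 nt or longer were 14.8% in rat and 24.4% in mouse. Reads over 45 nt, beyond the stated selection, were 4.75% in rat and 12.2% in mouse.

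**Figure D2:**
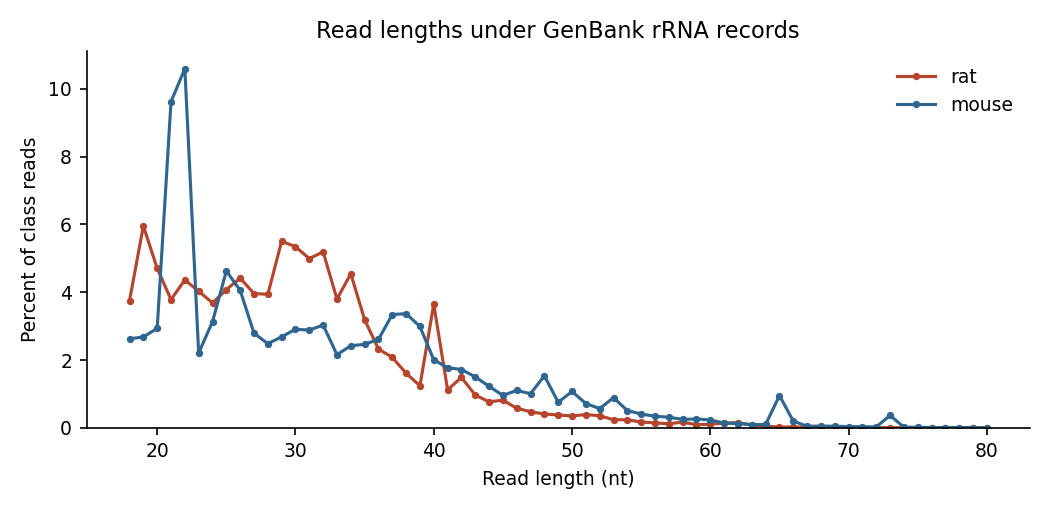
Percent of class reads (y axis) at each read length from 18 to 80 nt (x axis), rat in red and mouse in blue, 1 library each. Mouse has its peak at 21 and 22 nt, and rat a broad shoulder between 29 and 34 nt and a peak at 40 nt with 3.65% of reads. The small mouse peaks at 65 and 73 nt are the lengths of the leading Snord34 and Snord68 reads.

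The modal length also differed between records. GU372691.1 peaked at 22 nt, with 12.7% of its reads. NR_046239.1 peaked at 19 nt, with 8.89%, and NR_046246.1 at 29 nt, with 8.71%. AF441733.2 and AY739179.1 both peaked at 35 nt. Among distinct sequences of the class, each counted once, the modal length was 22 nt in rat and 19 nt in mouse, the opposite order.

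Within the class entries, rat reads were spread over more forms than mouse reads. This depends on the matched entry. The rat 41-nt form at the 28S start (510984 reads) and the mouse 23-nt form of site 4 (69580 reads) stood under mRNA records and are not counted. The most abundant sequence held 2.64% of the class in rat and 8.50% in mouse. The 10 most abundant together held 12.8% in rat and 23.9% in mouse. The most abundant 491 sequences were needed for 50% of the rat class, and 237 for 50% of the mouse class. Single-read sequences were 47.1% of distinct class sequences in rat and 39.9% in mouse. Of the 28S words, 4182 of 4182 had reads in the rat listing by construction, and 3085, or 73.8%, had reads in the mouse listing. Reads piled up on few of these words: the top 1% of words took 58.5% of all counts on the set in rat and 32.9% in mouse. For the top 10% of words the shares were closer, at 80.9% in rat and 76.8% in mouse. These word counts cover any entry and include the 28S start.

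Read ends at the leading places were compared by collecting every read that shares a 15-nt word with the leading form, first under the class and then under any entry. Levels are in RPM, reads per 1000000 listed reads. The entry matters, because 42.4% of rat reads with 28S content and 46.4% of mouse reads with 28S content stood outside the class. In all, reads with 28S content were 20.5% of the rat listing and 6.46% of the mouse listing, a log2 ratio of 1.67 (1.665 to 1.673). Leaving SNORD58 out of the totals shifts this ratio by -0.60. It also includes the 28S start, a place for which no ratio is given below. The 28S words come from a rat record, so mouse stretches that differ are missed.

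**Figure D3:**
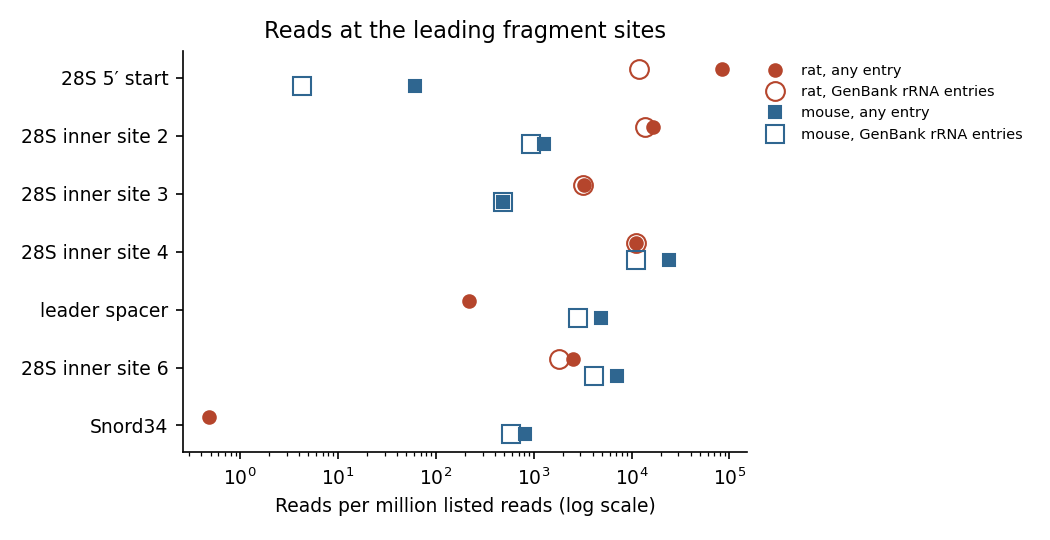
Reads per 1000000 listed reads (x axis, log scale) at 7 leading places, rat in red and mouse in blue, 1 library each. Filled symbols count every entry, open ones GenBank rRNA entries only, and an open symbol is missing where the count was 0. By filled symbols, rat stands to the right at the 28S start and at sites 2 and 3, and mouse at sites 4 and 6, at the leader spacer and at Snord34.

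Among the places compared here, the start of 28S had the most rat reads under any entry, though not the most of the whole rat library. Reads holding the 16 bases of the start were 1205763 in rat, 8.23% of all listed rat reads. They were 441 in mouse, 0.00375% of listed mouse reads. In rat 97.7% of them began exactly at the first base, 2.01% began 1 base upstream and 0.264% farther upstream, by up to 30 bases. The 5′ end was thus nearly uniform, and the 3′ end was not.

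The lengths of these rat reads fell in a few steps. The 41-nt form had 510984 reads, 43.4% of reads that begin at the start, and the 36-nt form 285442, or 24.2%. The 35-nt form had 111919 reads, the 40-nt form 50716, the 37-nt form 47953 and the 19-nt form 35951. Only 171330 reads at the start, or 14.2%, stood under GenBank rRNA records, and 1018976, or 84.5%, stood under records of the type mRNA. The 3 most abundant rat class sequences, at 40, 19 and 34 nt, were therefore the minor forms of 1 end.

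In mouse the 441 reads were all listed as piRNA entries, none of them longer than 20 nt. Mouse reads covered 23 of the 24 words of the rat 41-nt form, so the stretch itself occurs in mouse. The mouse table does not list its sequence numbers 2 and 3, and counts fall or stay level with the number throughout both listings, so theirs would lie between 509872 and 3708397. The rat table has such gaps too: its number 3 is not listed and would lie between 510984 and 2086973. Sequences under unlisted numbers were not analysed here, and nothing ties any of them to this place. Only 51.3% of rat sequence numbers and 40.6% of mouse ones are listed, so no ratio is given for this place.

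**Figure D4:**
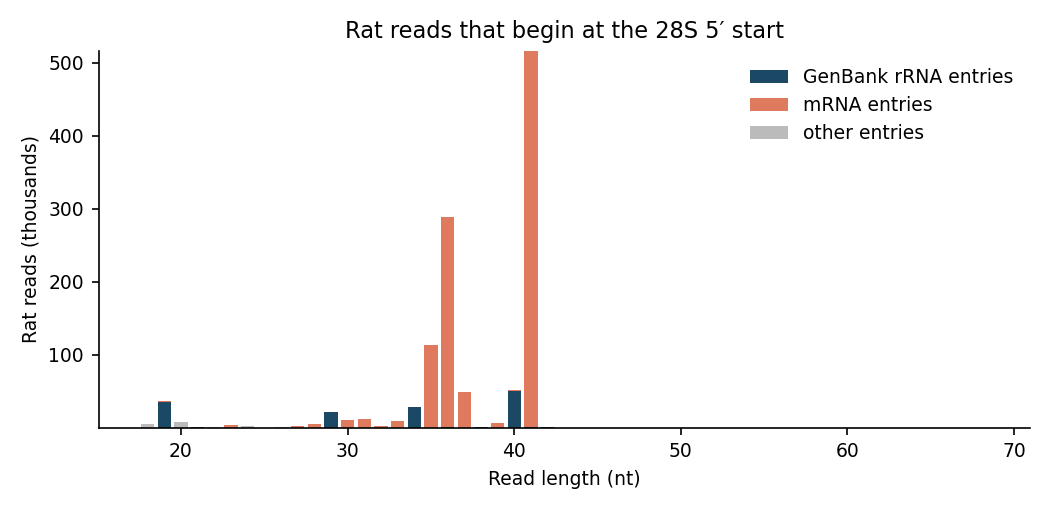
Rat reads that begin at the 28S start (y axis, in units of 1000) by read length (x axis, nt), stacked by the type of the matched entry. The bars at 41, 36 and 35 nt are nearly all mRNA entries, while the bars at 40, 34, 29 and 19 nt are GenBank rRNA entries.

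In rat the far end of 28S was sampled much less than the start, while in mouse it had more reads, 971 against 441. The 45-nt read that ends at the textbook 3′ end of 28S was picked after its values were seen, with its last 18 bases in capitals.
28S 3′ end, 45 nt: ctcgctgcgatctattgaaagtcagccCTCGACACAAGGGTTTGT
It had 160 reads in rat and 312 in mouse. All reads holding those 18 bases were 1049 in rat, or 71.6 RPM, and 971 in mouse, or 82.6 RPM. Of these, 94.9% ended at the last base in rat and 91.6% in mouse, and the rest ran past it by at most 5 bases in rat and 3 in mouse.

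Site 2 was higher in rat, with the same ends in both species. It had 242233 reads under any entry in rat, or 16531 RPM, and 15021 in mouse, or 1277 RPM, a log2 ratio of 3.69 (3.67 to 3.72). The 32-nt form had 28222 reads in rat and 2022 in mouse. Its 5′ end was the most common one in both, at 22.4% of site reads in rat and 21.3% in mouse, and so was its 3′ end, at 45.9% in rat and 43.0% in mouse. The 30-nt form had 19435 reads in rat under an rRNA record and 1132 in mouse, where the same letters are listed as the piRNA entry piR-971. In mouse, 26.5% of site 2 reads stood under piRNA entries.

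Site 3 was also higher in rat, but the ends differed. It had 47932 reads in rat, or 3271 RPM, and 5729 in mouse, or 487 RPM, a log2 ratio of 2.75 (2.71 to 2.79). In rat 65.0% of site reads began at the first base of the 20-nt form, and in mouse 0.489% did. In mouse the most common 5′ end lay 8 bases farther upstream, with 39.1% of reads. The 20-nt form had 17241 reads in rat and 8 in mouse, whereas the 29-nt form had 13 reads in rat and 1525 in mouse.

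Site 4 took 8.40% of class reads in rat and 20.6% in mouse, and per listed read its level depended on the total and on which entries were counted. Its level under GenBank rRNA records was 11034 RPM for rat and 11039 RPM for mouse, with a log2 ratio of -0.00064 (-0.011 to 0.0099), which was -0.60 with SNORD58 left out of the totals. Under any entry it had 161691 reads in rat, or 11035 RPM, and 282987 in mouse, or 24062 RPM, a log2 ratio of -1.12 (-1.13 to -1.12). In mouse, 54.1% of site 4 reads stood under mRNA records, and in rat 0.00742% did. The 23-nt form had 7255 reads in rat under an rRNA record and 69580 in mouse under an mRNA record.

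At site 4 the last base of the 22-nt form was the 3′ end of 14.2% of site reads in rat and 76.4% in mouse. In rat the 22-nt form's own start was the most common 5′ end, at 44.2% of site reads over 51 distinct 5′ ends. In mouse the most common start lay 1 base upstream, with 33.1% of reads over 18 distinct 5′ ends. The 22-nt form had 10174 reads in rat and 53427 in mouse, where it was the most abundant sequence of the class. The 32-nt form that runs on past this end had 6570 reads in rat and 253 in mouse.

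Site 6 was higher in mouse by both counts. It had 36757 reads under any entry in rat, or 2509 RPM, and 84050 in mouse, or 7147 RPM, a log2 ratio of -1.51 (-1.53 to -1.49). The 38-nt form had 2048 reads in rat and 9738 in mouse, and its 5′ end was the most common in both, at 24.9% in rat and 30.0% in mouse. The signs of the ratios at sites 2, 3, 4 and 6 under any entry were the same with SNORD58 left out of the totals, at 3.09, 2.14, -1.73 and -2.11.

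The leader of the precursor was read in mouse through the GENCODE lincRNA Gm26917 (chr17:39843013-39846341, plus strand, GRCm38). It ends 12 bases before Rn18s-rs5, an 18S copy that RefSeq types as a pseudogene (chr17:39846354-39848202), and so lies where the 5′ external transcribed spacer of that copy would be. Mouse reads with Gm26917 content were 19267 in the class, or 3.06% of it, and 26928 under any entry. The leading fragment sits at the upstream edge of that transcript. Its 21-nt form was not listed in rat, where unlisted sequences were not analysed. It had 21193 reads in mouse, where it was the third most abundant sequence of the class.

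This fragment had 57459 mouse reads under any entry, 58.3% of them in the class and 40.2% under records of the type snRNA. Of the 21 bases, the last 20 also occur in the hairpin of Mir5099 (chr12:36816205-36816278, plus strand). Reads found whole in that hairpin were 141 of 57459, while 19879, or 34.6%, ran on into the first bases of Gm26917. The 50-nt form had 1984 mouse reads, and its last 36 bases match Gm26917 from its first base. Counting this fragment with all Gm26917 reads gave 46200 mouse class reads, 7.35% of the class.

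**Figure D5:**
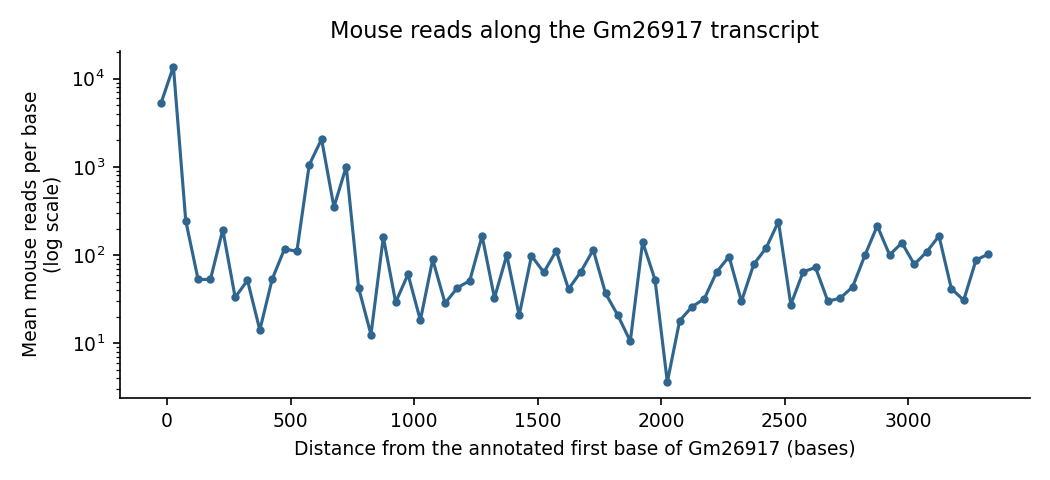
Mean mouse reads per base under any entry (y axis, log scale) in bins of 50 bases against distance from the annotated first base of Gm26917 (x axis). The first 50 bases have the highest level, 13733 reads per base, and the bins from 551 to 750 bases form a second group with up to 2061 reads per base. Reads extend along the whole annotated transcript.

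Rat reads at the corresponding place were not in the class. Sharing a 15-nt word with the mouse 21-nt form, 3226 rat reads were found, 3130 of them under mRNA records and 0 under GenBank rRNA records. The leading rat form of 54 nt had 297 reads, and 70.2% of the rat reads shared its first 20 bases. The rat and mouse letters differ here, so a search by mouse words reaches rat reads only in part. The rat level of 220 RPM, against 4886 RPM in mouse, is a lower bound, and no ratio is drawn from it.

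Many exact sequences were common to both species. Of rat class sequences, 20771 of 102361 were also listed in mouse under some entry, and these carried 51.7% of rat class reads. Of mouse class sequences, 16607 of 48572 were also listed in rat, carrying 76.8% of mouse class reads.

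Over exact sequences with at least 100 reads in both libraries together, 2236 of 3627 members were at least 2-fold higher in rat and 792 at least 2-fold lower, on the log2 scale of RPM computed with 0.5 reads added. Among all 9067 listed sequences over that minimum, 56.8% were at least 2-fold higher in rat and 30.5% at least 2-fold lower. The members' shares were 61.6% higher and 21.8% lower. The 9067 sequences include the 3627 members, so the shares over all are not independent of the members' own. The median log2 ratio was 2.46 for members and 1.97 for all. Scaled to the class reads of each library, 1863 members were higher, or 51.4%, and 1170 lower, or 32.3%. No share over all listed sequences is given on that scale, so these counts have no background here. Restricted to sequences listed in both libraries, 1138 of 2437 members were higher, or 46.7%, beside 51.0% of all such sequences, and 700 were lower, or 28.7%, beside 27.2%.

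The extremes among the 506 members with at least 100 reads in each library came from few places. The highest log2 ratio, 5.32 (5.03 to 5.62), belonged to an 18-nt sequence with 5017 reads in rat and 101 in mouse. It stood under NR_033176.2 in rat and under NR_046144.1 in mouse, a 5S rRNA gene in RefSeq (n-R5s136). The next 2 were forms of site 2, of 27 nt with 6055 reads in rat and 129 in mouse, and of 26 nt with 13479 in rat and 366 in mouse. The 3 lowest were forms of site 4 that begin farther upstream. The 28-nt form had 106 reads in rat and 5684 in mouse, a log2 ratio of -6.06 (-6.35 to -5.78). The 26-nt form had 214 reads in rat and 11157 in mouse, and the 25-nt form 286 in rat and 7874 in mouse.

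Other RNAs of the ribosome and of rRNA processing did not move together. Of the 12 Rfam names searched, which need not be 12 different RNAs, 7 had reads in both libraries. Their median log2 ratio was 0.74 (rat over mouse), beside -0.51 over the 91 Rfam families with at least 100 reads. 1 of the 7 was at least 2-fold higher in rat and 0 at least 2-fold lower, beside 33.0% higher and 37.4% lower among the 91. With SNORD58 left out of the totals, 1 of the 7 was higher and 2 lower, 18S rRNA and SNORD22 both at -1.57, and the median was 0.13. Leaving it out shifts the ratio of every family by -0.60. The shares and median over the 91 are given only with SNORD58 in the totals and are no background for these values. The higher family under both totals was 5.8S rRNA, the small RNA that pairs with 28S, at 0.450% of listed reads in rat and 0.0447% in mouse, a log2 ratio of 3.33 (3.29 to 3.37). 5S rRNA, the separately transcribed RNA of the large subunit, was 2.15% in rat and 1.29% in mouse. 18S rRNA, the RNA of the small subunit, was 0.835% in rat and 1.63% in mouse, a log2 ratio of -0.97 (-0.98 to -0.96).

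The snoRNA U3, which is needed to cut the leader of the precursor, had 452 RPM in rat and 392 in mouse. Its log2 ratio of 0.20 changed sign to -0.40 with SNORD58 left out of the totals. SNORD14, which also takes part in 18S processing, had 768 reads in rat and 329 in mouse. SNORA73, likewise, had 295 reads in rat and 122 in mouse. SNORD22 had 9.76 RPM in rat and 19.1 in mouse. U8, which acts on 5.8S and 28S, had 0 reads in rat and 6 in mouse, and snoU13 had 11 in rat and 0 in mouse. No reads were listed under the names LSU_rRNA_eukarya, SNORD118 or RNase_MRP in either library.

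Markers of cell types, taken as microRNAs by exact name, moved with species as well, and their part in the rRNA differences was not tested. The 3 germ-line microRNAs summed to 777 RPM in rat and 6.12 in mouse, with 0 of 3 at 0 reads in either. The 5 epithelial ones summed to 258 RPM in rat, with 1 at 0, and 204 in mouse, with 0 at 0. The 4 muscle ones summed to 1855 RPM in rat and 833 RPM in mouse, each with 1 at 0. The 4 leukocyte ones summed to 17.2 RPM in rat, with 0 at 0, and 0.765 in mouse, with 1 at 0. The 3 red cell ones were higher in mouse, at 0.478 RPM in rat, with 2 at 0, and 7.14 in mouse, with 1 at 0. The 2 endothelial ones summed to 27.0 RPM in rat and 15.7 in mouse, with 0 at 0 in either. All these levels have SNORD58 in the totals.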

How the data were processed

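Small RNA libraries of caput epididymal sperm were analysed, 1 per species. Per the file headers, the deposited tables give for each distinct sequence its read count, the strand, 1 matched entry and the mismatches, of which there were at most 2. Bowtie 0.12.7 and the builds mm9 and rn5 are named, per the submitters' processing notes. How ties between entries were settled is not given in the sources used here, and trimming is not either. Depth was 14652889 listed reads in rat and 11760708 in mouse.

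Rows on the minus strand were turned to the reverse complement. Counting intervals at 95% are Clopper-Pearson for a share and conditional binomial, also exact, for a ratio. PCR reads without molecular identifiers are not independent molecules, so intervals cover counting error only. A count of 0 means that no read was listed, and sequences under unlisted numbers may hold reads. Content was assigned by 18-nt words. Coordinates and symbols are from GENCODE vM21 and RefSeq on GRCm38, and mouse accessions were matched to RefSeq without their version numbers, which paired 142 of 593. Records with at least 1% of the class, the 10 most abundant sequences of each library, the leading sequence of each such record and the 3 highest and 3 lowest ratios were named. The members and lists were chosen with earlier results of these data known. Calculations were tested on simulated data and used Python 3.11.15, pandas 2.3.3, numpy 2.4.6 and scipy 1.17.1.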

Additional observations from a re-analysis of the deposited data

Results flagged for a closer look

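Reads with 28S content that stand outside the GenBank rRNA entries amounted to 1275197 in rat and 352703 in mouse, and were flagged as signal in rows that the class itself does not use. In rat, 1237110 of them stood under records of the type mRNA, 17873 under piRNA entries and 16151 under Rfam entries. In mouse, 263143 stood under mRNA records, 53000 under mitochondrial records and 22809 under piRNA entries.

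Part of this rat signal lay at the 28S start, with 1034433 rat reads outside the class and 171330 within it. Its 41-nt form alone had 510984 rat reads under an mRNA record.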

How the results depend on the processing

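The higher share of the class in rat kept its direction under all 8 alternatives, with a log2 ratio of 0.69 without SNORD58 in the totals, 0.30 of all rRNA reads, 1.09 without the most abundant sequence of each library, 1.57 by distinct sequences, 2.18 for matches without a mismatch, 1.24 for the plus strand, 1.26 for sequences of at least 10 reads and 1.34 for reads of 18 to 45 nt. NR_046239.1 held 46.5% of the rat class, and 46.9%, 42.4%, 47.8% and 47.0% with no mismatch, by distinct sequences, without the top class sequence and with at least 10 reads. GU372691.1 held 80.3% of the mouse class, and under the same alternatives 81.5%, 53.1%, 78.5% and 85.1%. Members at least 2-fold higher in rat numbered 14995 of 25272 with a minimum of 10 reads and 236 of 359 with a minimum of 1000, and those lower 5403 and 77, since the minimum sets how many sequences are compared. The other alternatives kept both counts within 1.5 times. Shares over all listed sequences are given only for the main setting, so the counts under the alternatives have no background. The top 10 sequences held 13.4% and 14.2% of the rat class, and 24.3% and 28.4% of the mouse class, with no mismatch and with at least 10 reads. Reads of 18 to 24 nt were 24.8% in rat and 21.3% in mouse by distinct sequences, and 31.1% in rat and 27.6% in mouse without the top class sequence, so rat then exceeded mouse under both; the cause was not tested. Alternatives chosen after seeing the data, words of 22 nt and words from sequences of at least 10 reads, put 28S content at 89.0% and 89.8% in rat and at 64.6% and 64.0% in mouse. No paired analysis was possible because there is 1 library per species. Depth limits single forms with few reads, and sequence numbers not listed were not analysed here.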
